A study of Mus musculus with 18 samples.

Results

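The 48 genes described here encode the machinery that starts and carries out DNA replication, from the loading of the MCM helicase at origins to the polymerases, the sliding clamp and the proteins that guard the fork. They were taken by symbol, and make up 48 of the 50600 genes of the deposited tables. Neural stem cells (NSCs) of the adult mouse dentate gyrus, the part of the hippocampus in which neurons are born throughout life, were grown in culture and treated for 24 h with 500 µM H2O2, an oxidant, or with vehicle (0 µM H2O2). RNA of about 30000 cells per culture was diluted to 10 pg, 100 pg and 1 ng, and each dilution was sequenced, to ask whether a treatment response can be read from little RNA. This gave 6 groups of 3 libraries, H2O2 and vehicle at each input. The labels give the strain as C57Bl6J with no further allele, the age of the mice as 6 to 9 weeks and the passage as 6 to 15 for every group, and all cells were kept in EGF and FGF2 (20 ng/ml each). The vehicle is named as water in the labels and as PBS in the methods of the study. Columns of the tables carry the culture names F5, F8 and M9, while the methods of the study name 1 line from pooled female and 1 from pooled male mice, so F5 and F8 are read here as cultures of the female line and M9 as a culture of the male line, and n = 3 as 3 cultures of 2 lines. The labels differ in speaking of 2 cultures of each sex, which was not resolved. Each culture gave a vehicle RNA and an H2O2 RNA, 6 RNA samples in all, and since each was diluted to all 3 inputs, the inputs are not independent of each other.

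Replication is prepared before S phase, when the origin recognition complex (ORC), Cdc6 and Cdt1 load the ring of Mcm2 to Mcm7 onto DNA. At S phase entry the kinase Cdc7 with its partner Dbf4, together with Ticrr and the cyclin-dependent kinases, recruits Cdc45 and the GINS complex to the ring, which turns it into an active helicase. Polymerase alpha with primase then starts each strand, polymerases delta and epsilon extend it on the clamp Pcna, and Fen1 and Lig1 finish the lagging strand. Many of these genes are known targets of E2F factors, are transcribed as cells enter S phase and are low in resting cells. In the adult dentate gyrus most NSCs are quiescent, whereas in culture with EGF and FGF2 they proliferate. In bulk RNA, fewer cells in S phase and less of these transcripts per cell cannot be told apart.

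Promoter sequences are shown first, because many of these genes are known E2F targets and an E2F-like motif can be looked for directly. RefSeq promoters (build GRCm38.p6, 250 bases before to 50 bases after the start of the gene) were matched for 39 of the 48 genes, and Gmnn, Mcm4, Gins1, Gins2, Gins4, Prim2, Pole, Rfc2 and Tipin had no entry. The letters TTTNNCGC, searched on both strands with N for any base, were found in 16 of the 39 (41.0%), against 5.93% of the 27025 symbols with a promoter and 9.73% of the 10190 of these that were tested at 1 ng. CCAAT was found in 23 (59.0%, against 41.1% of all) and TTTGAA in 7 (17.9%, against 20.2% of all), so TTTGAA was about as common here as elsewhere. With only the bases before the start, TTTNNCGC was found in 9 of 39 (23.1%, against 4.94% of all and 8.13% of those tested at 1 ng). Of the 753 genes with a promoter that were called lower at 1 ng, members included, 18.6% held it in the whole window and 15.1% before the start. The 3 motifs may overlap each other in single letters, and each was counted once per gene, on either strand. A match is a description of the sequence and not of a bound site. The sequences of 160 bases up to the start of the gene are shown for the 4 genes that hold TTTNNCGC there and whose window has at most 5 bases inside the gene as GENCODE M21 draws it, with the matches in capitals, to set Orc3, the gene that differed least between treatments at 1 ng, beside 3 genes that fell. They lie at chr4:34614943-34615102 (minus strand), chr8:75109349-75109508 (plus strand), chr1:128359706-128359865 (minus strand) and chrX:93632156-93632315 (minus strand).
Orc3: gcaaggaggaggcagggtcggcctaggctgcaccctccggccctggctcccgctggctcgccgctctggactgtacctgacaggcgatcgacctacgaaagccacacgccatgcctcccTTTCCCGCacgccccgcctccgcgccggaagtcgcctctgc
Mcm5: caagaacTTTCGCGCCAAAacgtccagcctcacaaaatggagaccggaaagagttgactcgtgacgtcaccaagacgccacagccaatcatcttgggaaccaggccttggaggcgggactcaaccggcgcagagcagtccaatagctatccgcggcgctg
Mcm6: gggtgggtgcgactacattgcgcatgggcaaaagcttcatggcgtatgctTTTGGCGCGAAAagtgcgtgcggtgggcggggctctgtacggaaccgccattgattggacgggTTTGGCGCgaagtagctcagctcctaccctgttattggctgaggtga
Pola1: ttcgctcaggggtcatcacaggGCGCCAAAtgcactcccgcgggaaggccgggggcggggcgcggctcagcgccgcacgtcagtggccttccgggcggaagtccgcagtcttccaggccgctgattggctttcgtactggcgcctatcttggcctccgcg
In Mcm5 and at the first run of capitals in Mcm6, matches on opposite strands overlap. Of the genes tested at 1 ng, 15 held TTTNNCGC and had a median log2 fold change of −1.90, with 9 called lower. The 23 with a promoter that did not hold it had a median of −1.50, with 16 called lower. Both Orc3 (with the letters) and Orc4 (without them) were near 0, and Ticrr, which fell most, does not hold them.

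The libraries held 10032628 to 13051643 reads in genes, and values are given as normalized counts, that is, the reads of a gene over the size factor that the authors had set for that library in that table. CLEAR, the authors' filter on how evenly reads cover a transcript, kept 22 of the 48 genes at 10 pg, 44 at 100 pg and 47 at 1 ng, and these were tested among 6356, 12171 and 13692 genes. The H2O2 library of F5 stood apart: the 48 genes together took 11166 reads there at 1 ng, 25419 and 21458 in the H2O2 libraries of F8 and M9, and 45270.0 to 57026 in the vehicle libraries. It was the lowest of the 6 libraries for 45 of 47 genes at 1 ng, and the main counts are therefore also given without it. Summed neural stem and progenitor markers (9 genes) came to 74436 to 95738 in H2O2 libraries and 74413 to 79776 in vehicle libraries of 1 ng. Most of the sum came from Nes, Vim, Slc1a3 and Fabp7. Of the 9, Vim was called higher (limma adjusted p = 0.036, log2 fold change 0.63 ± 0.15) and 0 were called lower. Pax6 had 213, 219 and 193 with H2O2 and 247, 270 and 319 with vehicle, with no overlap (−0.41 ± 0.15, limma adjusted p = 0.11). The 4 proliferation markers (Mki67, Top2a, Ccnb1 and Aurka) came to 842 to 6039 with H2O2, against 11673 to 14492 with vehicle. Astrocyte markers (4 genes) summed to 2462 to 3193 in H2O2 and 1852 to 2568 in vehicle libraries. Among them Gfap had 139.8, 70.2 and 67.4 with H2O2 and 52.2, 28.9 and 45.5 with vehicle, with no overlap (adjusted p = 0.091 in limma, 0.043 with the culture as a block). S100b overlapped between the groups, at 161, 67.1 and 209 with H2O2 and 110, 155 and 203 with vehicle (limma adjusted p = 0.781). Aldh1l1 made up most of the sum, at 2913, 2312 and 2653 with H2O2 and 2328, 1684 and 2315 with vehicle. Its groups overlapped (limma adjusted p = 0.18), and Aqp4 was outside the CLEAR table. Neuron markers (5) summed to 109 to 306 with H2O2 and 111 to 170 with vehicle, microglia markers (5) to 152 to 168 with H2O2 and 115 to 129.5 with vehicle, endothelium markers (4) to 24.9 to 45.2 with H2O2 and 13.3 to 30.8 with vehicle, and oligodendrocyte markers (5) to 20.4 to 59.9 with H2O2 and 35.2 to 53.5 with vehicle. Most of the microglia sum was Csf1r, with 135, 141 and 131 with H2O2 and 98.7, 91.4 and 108 with vehicle. Csf1r was outside the CLEAR table and was not tested, and P2ry12 differed by 0.02 ± 0.68 (limma adjusted p = 0.984). Sox10 was at 0 in all 6 libraries, and Mog, Mbp, Mag, Cx3cr1, Aif1, Tmem119, Cldn5, Pecam1 and Cdh5 stayed under 10. The part of proliferation and of these other cell types in the results was not tested.

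Replication genes were lower in H2O2-treated than in vehicle-treated NSCs at 1 ng, with genes called in every role, while Orc3 and Orc4 of the ORC stayed closest to their vehicle level. All 47 tested genes had a negative log2 fold change (H2O2 over vehicle, on log2 of the normalized count + 1), with a median of −1.59 and a range of −2.67 for Ticrr to −0.10 for Orc3. The median over all tested genes was 0.02. In the limma test (Benjamini-Hochberg over all tested genes, threshold 0.05) 32 of the 47 genes fell and 0 rose, against 7.11% of all genes called lower and 5.57% called higher. No gene of the 47 had a positive fold change, so none was higher at an unadjusted p under 0.05 either, and DESeq2 and edgeR called 0 higher. All H2O2 libraries lay below all vehicle libraries for 46 of the 47 genes (19.7% of all genes), Orc3 being the exception. With the culture as a block, since each culture gave both its vehicle and its H2O2 cells, 42 fell (9.87% of all), and in DESeq2, the tool of the study, 41 (10.7% of all). The same 32 genes were among those called in both. The paper states a minimum fold change for its DESeq2 calls, which was not applied here.

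Without the H2O2 library of F5 the median was −1.13, the range −1.70 to −0.10, and 43 genes were called lower, against 7.22% of all genes. The 4 that were not called there are Orc3, Orc4, Orc5 and Rpa3. Without any 1 of the vehicle libraries of F5, F8 or M9, or without both libraries of F8 or of M9, limma called 0 of the 47 and 0 of all tested genes, whereas DESeq2 called 31, 31 and 29 of the 47 without the vehicle library of F5, F8 and M9 (6.85%, 6.26% and 5.68% of all genes). Without the H2O2 library of F8, 24 were called in limma (2.87% of all genes).

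**Figure D1:**
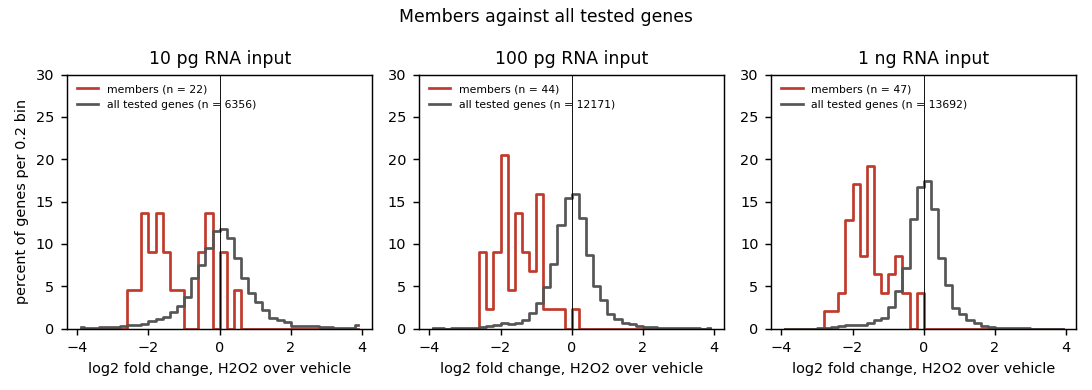
Log2 fold changes (x axis) of the replication genes (red) and of all tested genes (grey) as percent of genes in bins of 0.2 (y axis), with 1 panel per RNA input and values beyond 4 counted in the end bins. The genes lie to the left of all tested genes, with medians of −1.45 at 10 pg (22 genes), −1.48 at 100 pg (44 genes) and −1.59 at 1 ng (47 genes).

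Of the 9 genes of origin recognition and licensing, 3 fell in limma (Orc2, Orc6 and Cdt1) and 7 with the block, and the median log2 fold change was −0.97 (−0.80 without the H2O2 library of F5). The 3 with the largest differences were the licensing factors and their inhibitor. Gmnn, geminin, which binds Cdt1 and prevents a second round of licensing, was at 22.1, 91.5 and 158 normalized counts in the H2O2 libraries of F5, F8 and M9, against 246, 264 and 296 in the vehicle libraries. The groups did not overlap, but the H2O2 cultures spread widely, and the log2 fold change of −1.94 ± 0.62 (SE) had an adjusted p of 0.073 in limma and 0.036 with the block. Cdt1, which brings the MCM ring to ORC, had 40.2, 172 and 174 with H2O2 and 433, 450.3 and 356 with vehicle. It fell by 1.94 ± 0.52 (adjusted p = 0.049, limma). Cdc6, the ATPase that works with ORC in loading, had 53.3, 293 and 163 with H2O2 and 590.1, 565 and 407 with vehicle (−1.90 ± 0.54, limma adjusted p = 0.055, 0.038 with the block).

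Within the ORC the subunits parted. Orc1, the subunit whose level is known to change through the cell cycle, had 25.1, 89.5 and 75.9 with H2O2 and 151, 178 and 173 with vehicle (−1.57 ± 0.44, limma adjusted p = 0.055, 0.029 with the block). Orc3 (ENSMUSG00000040044.11, chr4:34570796-34614944), a core subunit, had 734, 804 and 667 with H2O2 and 767, 765 and 824 with vehicle. The groups overlapped, and the difference of −0.10 ± 0.11 did not pass (limma adjusted p = 0.563). Orc4 differed by −0.17 ± 0.11 (adjusted p = 0.33) and Orc5 by −0.58 ± 0.16 (0.056, and 0.032 with the block), while Orc2 fell by 0.76 ± 0.16 (0.031) and Orc6 fell by 0.97 ± 0.17 (0.022). The standard errors of Orc3 and Orc4 (0.11 each) were the smallest of the 47 genes. Of the exon bases of Orc2, 29.8% are shared with Nif3l1 on the opposite strand, and reads were counted without strand.

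Of the 6 subunits of the MCM ring, 5 fell in limma and 6 with the block, with a median log2 fold change of −1.98 (−1.26 without the H2O2 library of F5). Mcm6 (ENSMUSG00000026355.11, chr1:128331590-128359664) had 283, 1516 and 1173 normalized counts with H2O2 and 3521, 3484 and 3492 with vehicle. The H2O2 library of F5 was the lowest, and all 3 lay below vehicle (−2.14 ± 0.54, limma adjusted p = 0.044). Mcm2 had 276, 1333 and 1160.0 with H2O2 and 3098, 3248 and 2752 with vehicle (−2.01 ± 0.53, adjusted p = 0.047). Mcm5 had 227, 1003 and 815 with H2O2 and 2269, 2308 and 2235 with vehicle (−1.99 ± 0.48, adjusted p = 0.04). The smallest difference of the ring was that of Mcm7, with 453, 1419.7 and 1285 with H2O2 and 2715, 2735 and 2677 with vehicle (−1.53 ± 0.38, adjusted p = 0.043). Its gene overlaps Ap4m1 and Cops6 on the opposite strand and holds the hairpins of Mir25 and Mir93 (12.6% of exon bases shared). Mcm4 fell by 1.74 ± 0.37 (adjusted p = 0.031), and Mcm3 differed by −1.96 ± 0.53 with an adjusted p of 0.051, which passed with the block (0.03).

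**Figure D2:**
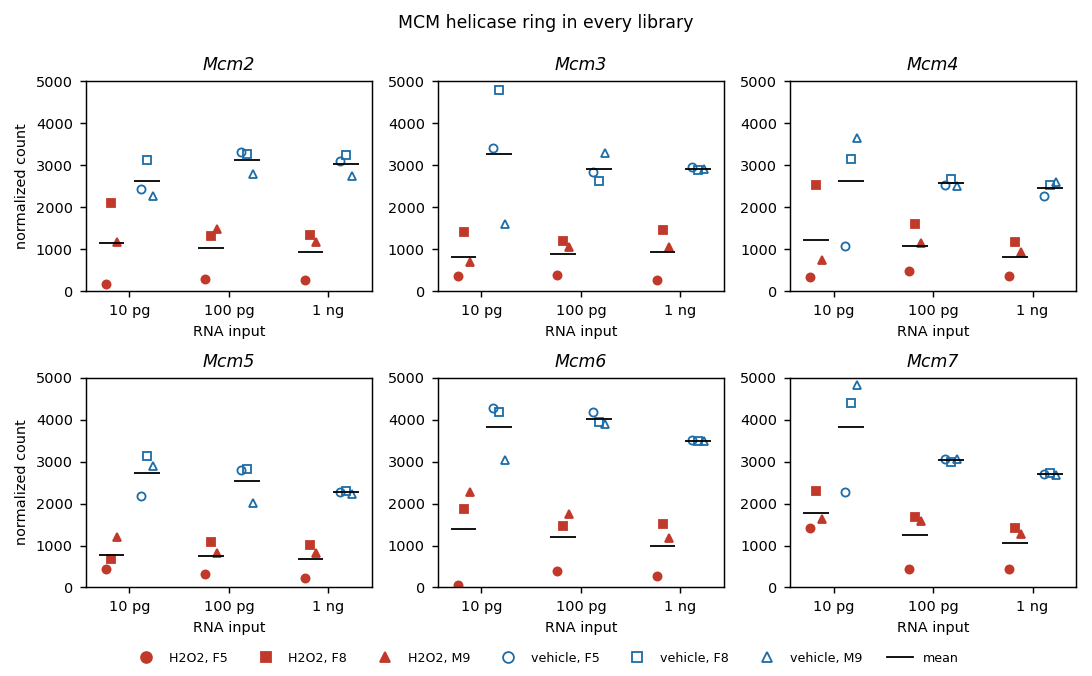
Normalized counts (y axis) of the 6 MCM ring genes in every library by RNA input (x axis), with H2O2 (filled red) left of vehicle (open blue), a symbol per culture and a line at the mean of 3 libraries. At 1 ng every H2O2 point lies below every vehicle point, and the H2O2 library of F5 is the lowest, while at 10 pg the points of a group spread widely and overlap for Mcm4 and Mcm7.

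Helicase activation and firing had 9 genes, of which 7 fell in limma and 8 with the block, with a median of −1.90 (−1.18 without the H2O2 library of F5, with 9 called). Ticrr (ENSMUSG00000046591.10, chr7:79660196-79698148), treslin, which brings Cdc45 to licensed origins, had 16.1, 140.3 and 115 normalized counts with H2O2 and 424, 433 and 391.5 with vehicle. This was the largest fold change of all 47 genes (−2.67 ± 0.71, adjusted p = 0.048, limma). Mcm10, which helps the assembled helicase start to unwind, had 17.1, 277 and 248 with H2O2 and 582, 723 and 503 with vehicle. With H2O2, F5 lay far below F8 and M9, and the difference of −2.47 ± 0.93 did not pass in limma (adjusted p = 0.116) or with the block (0.063), although without that library it was −1.18 and passed. Gins1, a subunit of the GINS complex, had 11.1, 46.8 and 35.8 with H2O2 and 120.4, 141 and 145 with vehicle (−2.30 ± 0.49, adjusted p = 0.031). Gins4, another subunit, had 273, 363 and 336 with H2O2 and 544, 557 and 485 with vehicle, the smallest difference of the role, and fell by 0.71 ± 0.14 (adjusted p = 0.028). Of the other GINS genes, Gins3 fell by 1.38 ± 0.29 and Gins2 fell by 1.02 ± 0.22 (adjusted p = 0.031 and 0.032), but 67.3% of the exon bases of Gins2 are shared with Gse1 on the opposite strand. Cdc45 fell by 1.92 ± 0.50 and Cdc7 fell by 1.63 ± 0.32 (adjusted p = 0.046 and 0.028), while Dbf4 differed by −1.90 ± 0.54 (adjusted p = 0.055, 0.028 with the block).

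Among the 9 polymerase and primase genes, 6 fell in limma and 8 with the block, with a median of −1.72 (−1.15 without the H2O2 library of F5, with 9 called). Prim1 (ENSMUSG00000025395.14, chr10:128015168-128030037), the catalytic subunit of primase, had 25.1, 223 and 193 normalized counts with H2O2 and 562, 503 and 427 with vehicle. The H2O2 library of F5 again lay far below the others, and the difference of −2.25 ± 0.73 had an adjusted p of 0.079 in limma and 0.055 with the block. Pola1, the catalytic subunit of polymerase alpha, had 91.5, 194 and 269.7 with H2O2 and 633, 826 and 699 with vehicle. It fell by 2.08 ± 0.35 (adjusted p = 0.022). Pole2, a subunit of polymerase epsilon of the leading strand, had 10.1, 58.0 and 52.7 with H2O2 and 135, 125 and 138 with vehicle (−2.03 ± 0.60, adjusted p = 0.061, 0.04 with the block). Pold2, a subunit of polymerase delta of the lagging strand, showed the smallest difference of the role, with 447, 698 and 724 with H2O2 and 1231, 1374 and 1561 with vehicle, and fell by 1.18 ± 0.19 (adjusted p = 0.022). Pold3 had the lowest adjusted p of all 47 genes (0.018), at −1.32 ± 0.17, and Pold1 (−1.72), Prim2 (−1.46) and Pola2 (−1.31) fell too (adjusted p = 0.031, 0.033 and 0.03). Pole, the catalytic subunit of polymerase epsilon, differed by −1.78 ± 0.53 (adjusted p = 0.063, 0.03 with the block).

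The clamp, the clamp loader and the lagging strand enzymes make up 8 genes, and 7 of them fell in limma and 8 with the block, with a median of −1.46 (−1.04 without the H2O2 library of F5). Lig1 (ENSMUSG00000056394.17, chr7:13277283-13311433), the ligase that joins Okazaki fragments, had 116, 600.0 and 605 normalized counts with H2O2 and 1374, 1456 and 1622 with vehicle. It had the largest difference of the role and was the 1 gene of it that did not pass in limma (−2.09 ± 0.57, adjusted p = 0.052, 0.026 with the block). Pcna, the sliding clamp, had 332, 977 and 870.3 with H2O2 and 1872, 2032 and 2047 with vehicle (−1.59 ± 0.36, adjusted p = 0.035). Fen1, the flap nuclease, had 277, 819.7 and 665 with H2O2 and 1593, 1699 and 1423 with vehicle (−1.56 ± 0.36, adjusted p = 0.035), but 84.2% of its exon bases are shared with Gm10143 and Tmem258 on the opposite strand, so its counts are uncertain. Rfc1, the large subunit of the clamp loader RFC, had 557, 729 and 729 with H2O2 and 1020.4, 1146 and 1259 with vehicle, the smallest difference of the role (−0.77 ± 0.14, adjusted p = 0.025). The other RFC genes ranged from −1.47 for Rfc5 and −1.45 for Rfc4 to −0.93 for Rfc2 and −0.81 for Rfc3, and all fell, with adjusted p-values of 0.03, 0.041, 0.035 and 0.03. Opposite-strand genes share 15.1% of the exon bases of Rfc2, 12.7% of Rfc4 and 10.7% of Rfc5.

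In single strand binding and fork protection 6 genes were tested, and 4 fell in limma and 5 with the block, with a median of −1.55 (−1.10 without the H2O2 library of F5). Wdhd1 (ENSMUSG00000037572.17, chr14:47240944-47276857), which ties polymerase alpha to the helicase, had 62.4, 267 and 222 normalized counts with H2O2 and 689, 725 and 667 with vehicle, and fell by 2.15 ± 0.48 (adjusted p = 0.033). Timeless and Tipin, which together steady the fork, lay on different sides of the threshold in limma, and both passed with the block. Timeless had 69.4, 385 and 293 with H2O2 and 734, 855 and 812 with vehicle (−1.9997 ± 0.56, adjusted p = 0.053, 0.026 with the block). Tipin had 219, 572 and 494 with H2O2 and 1154, 1181 and 1254 with vehicle (−1.59 ± 0.32, adjusted p = 0.029, 0.016 with the block). The difference between the 2 genes was not tested. Rpa1, the large subunit of the protein that coats single-stranded DNA, differed least of the role, with 1834, 1859 and 1477 with H2O2 and 2373, 2593 and 2398 with vehicle. It still fell by 0.52 ± 0.11 (adjusted p = 0.031). Rpa2, the middle subunit, fell too, with a log2 fold change of −1.50 ± 0.37 (adjusted p = 0.042), and Rpa3, the small one, differed by −0.74 ± 0.26 (adjusted p = 0.098, 0.086 with the block). Clspn, claspin, which passes the signal of stalled forks to Chek1, was outside the CLEAR table at 1 ng and had 4.99, 124 and 130.4 with H2O2 and 301, 278 and 373 with vehicle in the unfiltered table.

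**Figure D3:**
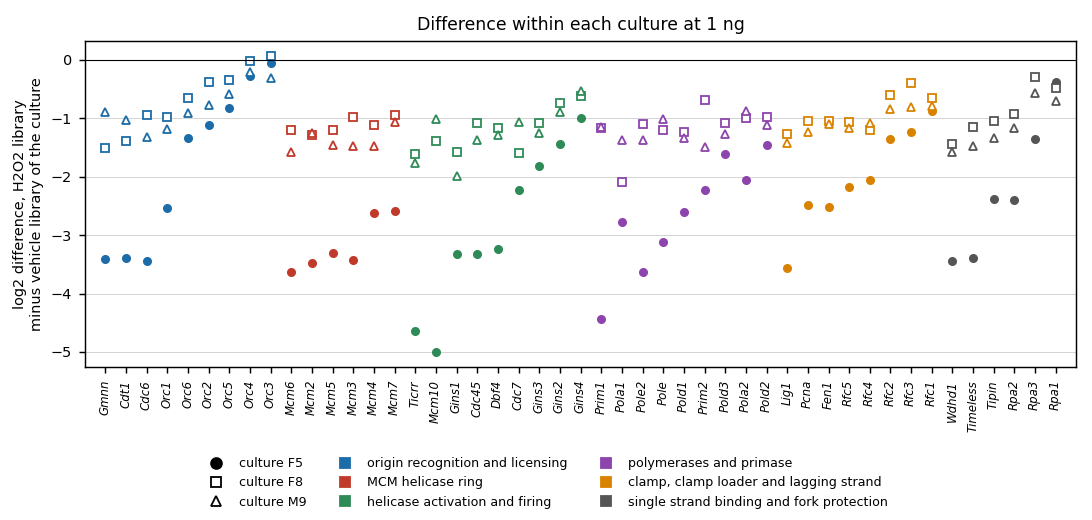
Log2 difference of the H2O2 library from the vehicle library of its own culture at 1 ng (y axis) for each of the 47 tested genes (x axis), grouped by role (colour), with culture F5 as filled circles, F8 as open squares and M9 as open triangles. F5 lies lowest for most genes, F8 and M9 lie close to each other, and Orc3 and Orc4 lie nearest to 0 in each culture.

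Within cultures, the differences at 1 ng ran from −5.01 to −0.06 in F5, from −2.08 to 0.07 in F8 and from −1.98 to −0.20 in M9. F5 was more negative than F8 for 46 of 47 genes and more negative than M9 for 45, whereas F8 was more negative than M9 for 11. The medians over the genes were −2.52, −1.07 and −1.17 in F5, F8 and M9. Across the 47 genes the differences of F5 correlated with those of F8 (Pearson r = 0.77) and of M9 (0.73), and those of F8 with those of M9 (0.75). These are correlations across genes that share libraries and are given as a description. F5, which stood apart, and F8 are read as cultures of the same line.

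Levels between genes were compared per kilobase of exon. At 1 ng the MCM ring genes had 133 to 247 normalized counts per kb with H2O2 and 436 to 776 with vehicle, Mcm2 being the lowest and Mcm3 the highest. The highest genes overall with vehicle were Pcna (303 per kb with H2O2, 827 with vehicle) and Mcm3, and the lowest were Ticrr (9.04 with H2O2, 41.6 with vehicle) and Clspn (12.0 with H2O2, 44.2 with vehicle). Origin recognition and licensing genes had 18.3 to 141 per kb with H2O2 and 48.2 to 234 with vehicle.

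**Figure D4:**
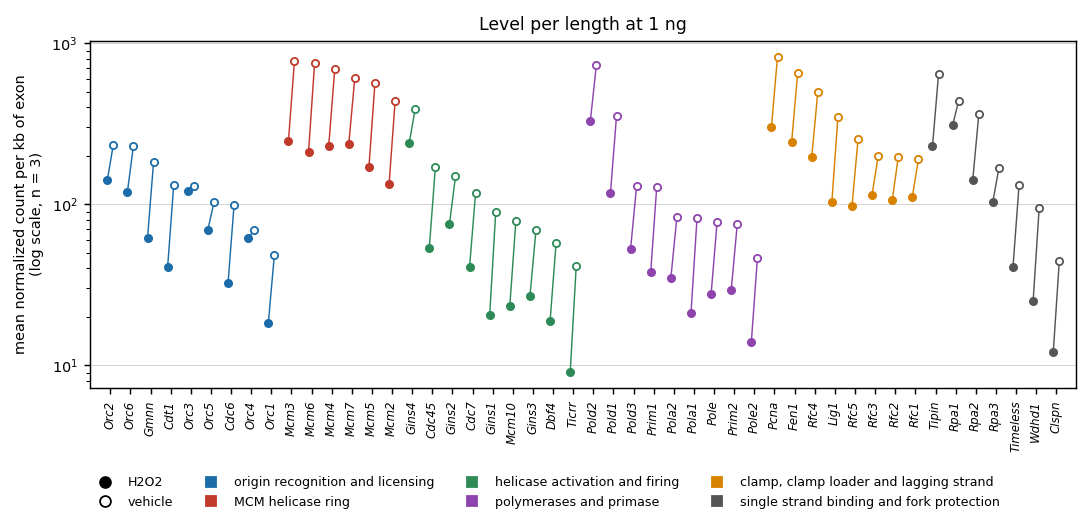
Mean normalized count per kilobase of exon at 1 ng (y axis, log scale, n = 3) for all 48 genes (x axis), grouped by role (colour) and ordered by the vehicle level, with H2O2 as filled and vehicle as open circles joined by a line. The MCM ring, Pcna and Pold2 are among the highest genes with vehicle, and the lines of Orc3, Orc4 and Rpa1 are the shortest.

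The ratio of partners in a complex differed between treatments for some pairs. The pairs that follow were chosen after their values were seen and are ratios of counts per kb within a library, given with no test and no share over other gene pairs. Orc1 over Orc3 was 0.0599, 0.195 and 0.199 with H2O2 in F5, F8 and M9, against 0.345, 0.407 and 0.368 with vehicle at 1 ng, and 0.0849, 0.0422 and 0.0890 with H2O2 against 0.479, 0.305 and 0.221 with vehicle at 100 pg. Rpa2 over Rpa1 was 0.2004, 0.645 and 0.542 with H2O2 and 0.818, 0.884 and 0.753 with vehicle at 1 ng. At 100 pg it was 0.275, 0.637 and 0.772 with H2O2 against 0.863, 1.00 and 0.863 with vehicle, and at 10 pg 0.514, 0.380 and 0.579 with H2O2 against 0.733, 0.815 and 1.68 with vehicle. In each of these the H2O2 libraries lay below the vehicle libraries. Other pairs were less even across inputs: Mcm2 over Mcm7 was lower with H2O2 without overlap at 1 ng and overlapped at 10 pg and 100 pg, and Pold1 over Pold3 overlapped at 1 ng and was higher with H2O2 at 100 pg, at 2.58, 2.28 and 3.10 with H2O2 and 2.10, 2.21 and 2.25 with vehicle. For Cdt1 over Gmnn the groups overlapped at 1 ng, at 0.848, 0.876 and 0.513 with H2O2 and 0.822, 0.797 and 0.560 with vehicle. Timeless over Tipin overlapped at 1 ng and 100 pg. Pola1 over Pola2 was lower with H2O2 without overlap at 1 ng. Prim1 over Prim2 overlapped at 1 ng and was lower without overlap at 100 pg. Rfc4 over Rfc1 was lower without overlap at 1 ng and 100 pg and overlapped at 10 pg.

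At 100 pg fewer genes passed, although the median fold change of the tested genes was close to that at 1 ng. The tested genes were not the same at both inputs. Gmnn, Gins1, Ticrr and Pola1, not tested at 100 pg, had −1.94, −2.30, −2.67 and −2.08 at 1 ng, and Clspn was tested only at 100 pg. The median log2 fold change of the 44 tested genes was −1.48 (0.01 over all genes), and 43 were negative. In limma 8 fell (0.846% of all genes) and 0 rose (0.666% of all), the 8 being Orc1, Mcm3, Dbf4, Pold1, Pold3, Rfc5, Fen1 and Tipin. Orc4, at 0.13 ± 0.20 (unadjusted p = 0.534), was the 1 gene above 0, so none was higher at an unadjusted p under 0.05, and DESeq2 and edgeR called 0 higher. With the block 19 fell (2.29% of all), in DESeq2 33 (5.01% of all) and in edgeR 5 (0.739% of all). H2O2 libraries lay below all vehicle libraries for 39 of the 44 (14.1% of all genes). Without the H2O2 library of F5 the median was −1.08 and limma called 22 (1.54% of all genes), and without the H2O2 library of F8 or any 1 vehicle library it called 0 of the 44 and 0 of all genes. The genes that the block added are Mcm4, Mcm5, Mcm6, Mcm10, Cdc45, Pold2, Pole, Pcna, Rfc2, Lig1 and Rpa2. With the block and without the H2O2 library of F5, 0 of the 44 were called. The share of all genes is not given for this setting, so the count is not read as a result about the 44.

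By role, the MCM ring had a median of −1.90 at 100 pg, with 1 gene called in limma and 4 with the block. Mcm6 had 402, 1461 and 1761 normalized counts with H2O2 and 4190.1, 3944 and 3889 with vehicle (−1.99 ± 0.46, limma adjusted p = 0.067, 0.041 with the block). Prim1 had 45.2, 199 and 265 with H2O2 and 724, 525 and 566 with vehicle (−2.15 ± 0.58, adjusted p = 0.088). Lig1 had 143, 661 and 437 with H2O2 and 1614, 1852 and 1464 with vehicle (−2.24 ± 0.47, adjusted p = 0.055, 0.03 with the block). These 3 genes kept non-overlapping groups, and their standard errors were 0.46 to 0.58, against 0.54 to 0.73 at 1 ng. Wdhd1 had 82.9, 223 and 278 with H2O2 and 518, 424 and 695 with vehicle (−1.62 ± 0.44, adjusted p = 0.09). Orc1 had 39.8, 14.8 and 29.4 with H2O2 and 191, 154 and 128 with vehicle, and fell by 2.54 ± 0.49 (adjusted p = 0.048), here with F8 and not F5 as the lowest culture.

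The medians of the other roles at 100 pg were −0.94 for origin recognition and licensing, −1.57 for activation and firing, −1.92 for polymerases and primase, −1.27 for clamp and lagging strand and −1.41 for single strand binding and fork protection. Without the H2O2 library of F5 they were −0.55, −1.23, −1.17, −0.93 and −1.10 in the same order, and that of the MCM ring was −1.24. Clspn, which CLEAR kept at this input, had 20.5, 287 and 104 with H2O2 and 525, 444 and 569 with vehicle (−2.56 ± 0.78, adjusted p = 0.115, 0.034 in DESeq2). Gmnn, Gins1, Ticrr and Pola1 were outside the CLEAR table. In the unfiltered table Gmnn had 0, 139 and 96.9 with H2O2 and 279.8, 375 and 389.9 with vehicle, and Ticrr had 3.22, 265 and 98.0 with H2O2 and 295, 539.8 and 303 with vehicle. Gins1 had 0, 86.1 and 84.9 with H2O2 and 86.2, 147 and 128 with vehicle, and Pola1 had 9.67, 252 and 374 with H2O2 and 769, 781 and 644 with vehicle. For all 4 the H2O2 libraries lay below all vehicle libraries (23.2% of the 909 genes outside CLEAR with a mean no lower than theirs), and the H2O2 library of F5 held few or no reads.

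At 10 pg, CLEAR kept all 6 genes of the MCM ring, none of the 9 of helicase activation and firing, and 22 of the 48 in all. Limma called 0 of the 22 lower (0% of all genes) and 0 higher (0% of all), and with the block 0 lower as well (0% of all), and limma without the H2O2 library of F5 called 0 lower too. At an unadjusted p under 0.05, 8 of the 22 and 646 of all 6356 genes were found, edgeR called 0, and DESeq2 called 3 lower (0.865% of all), which were Mcm3, Mcm5 and Orc6. The median was −1.45 (0.02 over all genes), and 19 of 22 were negative, Orc2, Orc5 and Pole being above 0. Without the H2O2 library of F5 the median was −0.78. H2O2 libraries lay below all vehicle libraries for 9 of the 22 genes (8.43% of all genes). The lowest limma adjusted p was that of Mcm5, with 432, 689.9 and 1211 normalized counts with H2O2 and 2180.0, 3135 and 2891 with vehicle (−1.92 ± 0.43, adjusted p = 0.259, 0.0065 in DESeq2). Mcm6 had 56.6, 1876 and 2274 with H2O2 and 4281, 4183 and 3032 with vehicle (−2.60 ± 1.199, adjusted p = 0.508). Orc6 had 289, 283 and 423 with H2O2 and 1332, 697 and 1204 with vehicle (−1.67 ± 0.48, adjusted p = 0.347, 0.04 in DESeq2).

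The spread between libraries was largest at 10 pg in both groups. Over the 22 genes in all 3 CLEAR tables, the median coefficient of variation was 60.9% at 10 pg, 45.9% at 100 pg and 44.3% at 1 ng with H2O2, against 30.8%, 11.9% and 4.95% with vehicle. The median standard error of the log2 fold change was 0.61 at 10 pg, 0.35 at 100 pg and 0.34 at 1 ng. In the unfiltered 10 pg table the H2O2 library of F5 held 0 reads for 11 of the 48 genes and 3 or fewer for 19, those of F8 and M9 3 or fewer for 4 each, and the vehicle libraries of F5, F8 and M9 3 or fewer for 5, 2 and 1. At 1 ng no library held 3 or fewer reads for any of them.

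**Figure D5:**
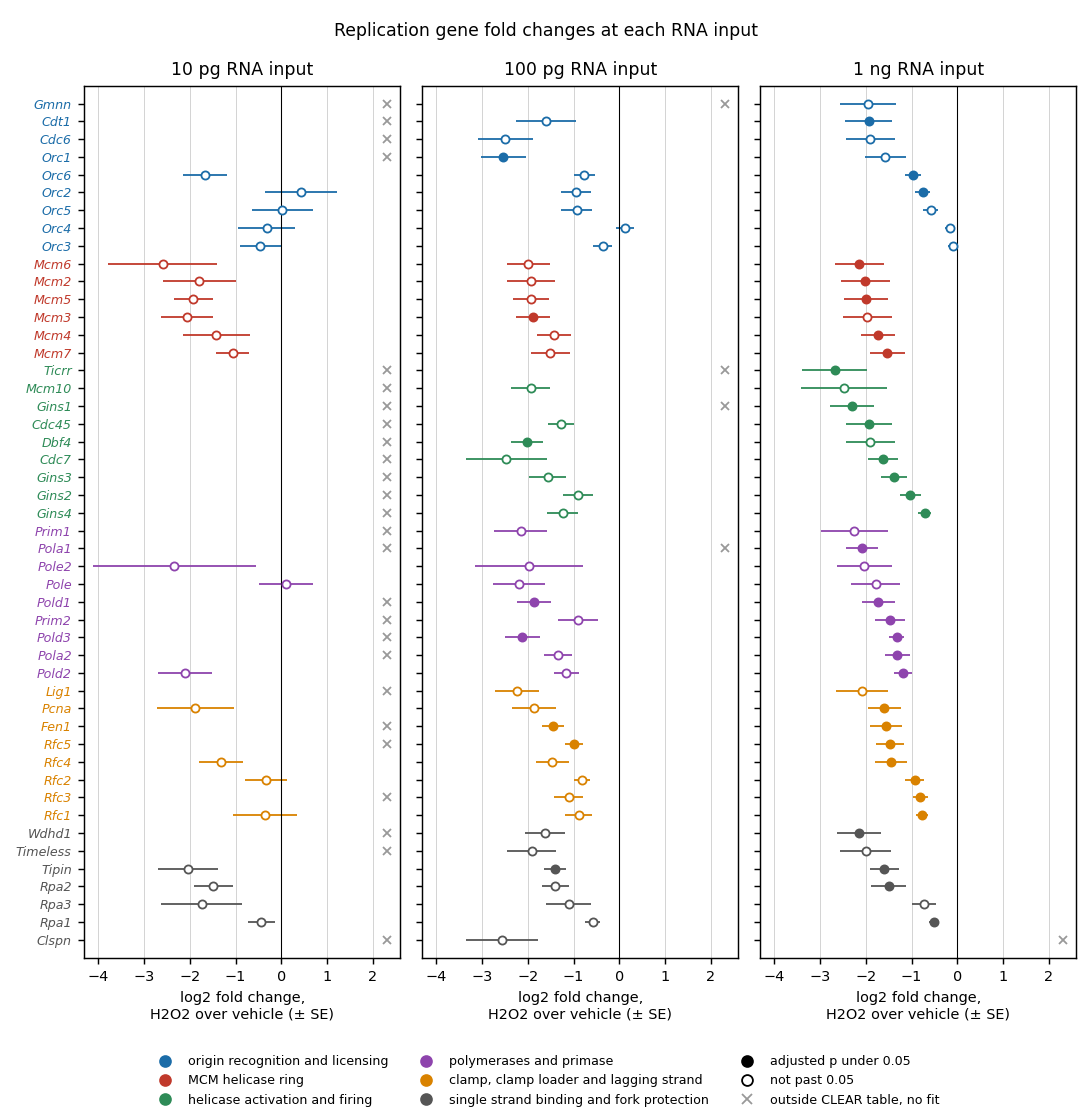
Log2 fold change, H2O2 over vehicle, with its standard error (x axis) for each of the 48 genes (y axis) grouped by role (colour), with a panel per RNA input. Filled points passed an adjusted p of 0.05 in limma (0 at 10 pg, 8 at 100 pg and 32 at 1 ng), open points did not, and crosses mark genes outside the CLEAR table (26 at 10 pg, 4 at 100 pg and 1 at 1 ng).

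The 26 genes outside the 10 pg CLEAR table were read from the unfiltered table, with no test. Their mean was lower with H2O2 for 23 of them, H2O2 libraries lay below all vehicle libraries for 9 and above all of them for 0, against 8.36% below among the 4939 genes outside CLEAR with a mean no lower than theirs, and the H2O2 library of F5 was at 0 for 10. Gmnn had 0, 199.7 and 294 with H2O2 and 91.1, 251 and 393 with vehicle, Ticrr had 0, 86.0 and 328 with H2O2 and 664, 621 and 36.6 with vehicle, and Prim1 had 0, 63.3 and 263 with H2O2 and 463, 786 and 754 with vehicle. Lig1 had 2.14, 808 and 1286 with H2O2 and 1263, 2087 and 1541 with vehicle. Wdhd1 had 443, 363 and 0 with H2O2 and 360.1, 335 and 0 with vehicle, and here the groups overlapped. Of these 5, only Prim1 had groups that did not overlap. The groups also stood apart for Cdc6, Cdt1, Gins4, Cdc7, Pold3, Rfc3, Rfc5 and Fen1. Orc1, with 0, 301 and 44.5 with H2O2 and 0, 0 and 306 with vehicle, was at 0 in libraries of both groups. Values of the other 17 (Mcm10, Cdc45, Gins1, Gins2, Gins3, Dbf4, Pola1, Pola2, Prim2, Pold1, Clspn and Timeless with those named above) overlapped between the groups.

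Other replication genes fell with these at 1 ng. Of 37 further replication genes, all tested, 17 fell and 0 rose in limma, 26 fell with the block and 30 in DESeq2, against 7.11%, 9.87% and 10.7% of all tested genes lower, with a median of −1.13. The 3 with the lowest p were Ssrp1, a subunit of the histone chaperone FACT, Chtf18, of an alternative clamp loader, and Pole4, of polymerase epsilon. Ssrp1 had 1486, 2167 and 2148 with H2O2 and 3417, 3642 and 3636 with vehicle (−0.90 ± 0.15, adjusted p = 0.022). Chtf18 had 91.5, 221 and 171 with H2O2 and 469, 562 and 565 with vehicle (−1.80 ± 0.30, adjusted p = 0.022), and Pole4 had 734, 759.7 and 715 with H2O2 and 1025, 1147 and 1062 with vehicle (−0.55 ± 0.09, adjusted p = 0.022). The 1 gene of the 37 above 0 was Pold4, the small subunit of polymerase delta, with 131, 88.5 and 95.9 with H2O2 and 49.0, 72.2 and 61.3 with vehicle (0.78 ± 0.26, adjusted p = 0.082). It was singled out after its values were seen. At 100 pg 2 of 35 fell in limma and 7 with the block (0.846% and 2.29% of all genes). At 10 pg 0 of 16 did in limma (0% of all), with DESeq2 calling 1 (0.865% of all).

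Of 14 genes for nucleotide supply and S phase entry, 7 fell and 0 rose at 1 ng in limma, 12 fell with the block and 11 in DESeq2, with a median of −1.65, beside the same shares of all genes (7.11%, 9.87% and 10.7%). Those with the lowest p were Slbp, the histone mRNA binding protein (500.0, 684 and 655 with H2O2, 1107, 1288 and 1252 with vehicle, −0.996 ± 0.14, adjusted p = 0.019), Cdk2 (−1.19 ± 0.22, 0.025) and Ccne2, cyclin E2 (−2.10 ± 0.42, 0.028). At 100 pg 1 of 14 fell in limma and 8 with the block (0.846% and 2.29% of all genes), and at 10 pg 0 of 9 did in limma and 4 in DESeq2 (0% and 0.865% of all).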

How the data were processed

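The 6 RNA samples (vehicle and H2O2 in the cultures F5, F8 and M9), diluted to 3 inputs, gave 18 poly(A) libraries, made with SMART-Seq HT and sequenced as paired ends. The authors trimmed and aligned the reads with HISAT2 2.0.6 (to GRCm38 by the methods of the study, while the labels name GRCh38), counted them per gene with featureCounts without strand, and applied CLEAR. The deposited values are a signal: gene counts divided by a size factor per library, in a filtered and an unfiltered table per input. All values came out as whole reads within 1e-08 of a read, and the count tests ran on those reads. Genes were matched to GENCODE M21, while the study used M14.

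The main test was limma 3.58.1 (R 4.3.3, trended eBayes) on log2(normalized count + 1) of the CLEAR table, per input, 3 H2O2 against 3 vehicle libraries, with p-values adjusted (Benjamini-Hochberg) over every gene tested and called under 0.05. This scale understates changes of low genes. DESeq2 1.42.0, edgeR 4.0.16 (quasi-likelihood), a culture block, pseudocounts of 0.5 and 10, other scalings, the unfiltered tables and left-out libraries were alternatives. Columns were assigned to treatment and culture by their names, which do not give the titled replicates. Vehicle and H2O2 libraries with the same culture name come from the same culture, and this is where the pairing comes from. Deviations of same-culture libraries from their group means correlated across genes with r = 0.122, 0.101 and 0.341 (F5, F8, M9) at 1 ng, 0.0771, 0.0262 and 0.170 at 100 pg, and −0.0293, 0.0103 and 0.0341 at 10 pg. Libraries of different cultures gave −0.204 to 0.0962 at 1 ng, −0.126 to 0.0526 at 100 pg and −0.0439 to 0.0324 at 10 pg. The highest of these was above the same-culture value of F8 at 100 pg, and above those of F5 and F8 at 10 pg. Genes described by library were, per role, the 3 with the largest and the 1 with the smallest fold change at 1 ng, and the first of each role also at the other inputs, and further members were added where a result turned on them. The 48 genes and the other lists were chosen with earlier results of these data known. The scripts were tested on simulated data.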

Additional observations from a re-analysis of the deposited data

How the results depend on the processing

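At 1 ng, 845 of 846 fold changes of these genes under the alternatives stayed negative. The exception was Orc3 without both libraries of M9 (0.0052). Of 32 genes lower at 1 ng, leaving out 1 library gave 0 to 43, and leaving out both libraries of F8 or of M9 gave 0 each. Of 8 lower at 100 pg, the culture block gave 19, DESeq2 33, edgeR 5, a pseudocount of 10 gave 5, scaling to the total gave 5, and the unfiltered table gave 0, also with a mean of at least 10. Leaving out 1 library gave 0 to 22, both libraries of F8 or M9 gave 0 each, and the block less the F5 H2O2 library gave 0. DESeq2 with F5, F8 or M9 left out of the H2O2 group gave 33, 35 and 30, and left out of the vehicle group 24, 26 and 23. Of 0 lower at 10 pg, DESeq2 gave 3, without the H2O2 libraries in the same order 2, 4 and 3, and without the vehicle libraries 2, 1 and 1. DESeq2 leave-outs and the block without a library were chosen after seeing the data. At 100 pg and 10 pg these counts stand without the share of all genes, and are not read as a result about the 48 genes. Over all genes, DESeq2 called 1463 lower against 973 in limma at 1 ng, 610 against 103 at 100 pg (279 with the block) and 55 against 0 at 10 pg. Among the 48 genes, the culture block changed no limma call other than those named in the report. The share of promoters with TTTNNCGC was 41.0%, and 23.1% before the start only. At 10 pg signs turned for Orc5 (DESeq2 −0.0103, edgeR −0.019, total scaling −0.034, without both libraries of M9 −0.49, 1 library left out −0.41 to 0.52), Pole (DESeq2 −0.11, edgeR −0.12, both of M9 −0.605, 1 left out −0.43 to 0.61), Orc4 (both of F5 0.39, 1 left out −0.59 to 0.062), Orc2 (without the H2O2 library of F8 −0.046, 1 left out −0.046 to 1.14), Pole2 (both of F5 0.046, 1 left out −3.58 to 0.054), Rfc1 (both of F5 0.31, 1 left out −1.01 to 0.11) and Rfc2 (both of F8 0.015). The cause was not tested. At 10 pg the H2O2 library of F5 held 3 or fewer reads for 19 of the 48 genes. The libraries held 10850553 to 12362510 reads at 10 pg and 10032628 to 11946931 at 1 ng. The part of read depth in these low counts was not tested.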
